A study of Mus musculus with 6 samples.

Results

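The genes of glycolysis, with hypoxia-inducible factor 1 (HIF-1), its oxygen-sensing hydroxylases and a set of its target genes, were followed in cultured mouse embryonic fibroblasts (MEFs). The set holds 34 genes, listed by symbol, out of 55487 genes in the tables, and all 34 were found. The list was chosen with earlier results of these data known. They were taken in 5 groups, namely 16 glycolytic enzymes, 3 transporters of glucose or lactate, 3 regulators of pathway flux, HIF-1 alpha with 2 prolyl hydroxylases, and 9 other HIF targets. RNA was sequenced from 6 libraries of untreated MEFs, primary connective-tissue cells of the embryo, with 1 wild-type (WT) and 1 knockout (KO) library at each of passages 2, 3 and 4. At each passage the cells are detached and plated again. The labels, which call the cells control MEFs throughout, give neither the gene that was knocked out nor the number of embryos or cultures. Titles were used for the genotype, since a tag for genotype gives WT to the passage 3 and 4 libraries that are titled KO. The libraries of a genotype may therefore be 1 culture sampled 3 times, and p-values measure only the spread between these libraries.

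Glycolysis converts glucose to pyruvate in the cytosol, and lactate dehydrogenase reduces pyruvate to lactate, which leaves the cell through monocarboxylate carriers. HIF-1 is a transcription factor whose alpha subunit is hydroxylated on prolines and degraded when oxygen is plentiful, and it accumulates when oxygen is scarce. It then raises most glycolytic genes, the glucose carrier, pyruvate dehydrogenase kinase and genes for angiogenesis, pH control and mitophagy, and its own hydroxylases in a feedback loop. Growth factor signalling through the kinase complex mTORC1, which the title of the series names, also raises HIF-1 alpha translation. Dividing fibroblasts in culture use glycolysis heavily.

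The libraries held 24853121 to 67760880 expected counts, and the passage 4 library of WT was the shallowest. All 12 fibroblast markers were measured, and their summed level was 13113.8 to 24528.5 TPM, a relative abundance scaled for transcript length and library size. Transcripts that differ between the sexes split the genotypes, with 15654 to 29034 counts of Xist in the KO libraries and 5 to 12 in WT, so that genotype and sex cannot be told apart. Markers of macrophages were also present and became scarcer with passage. The sum of 10 such markers was 522.6, 246 and 69.7 TPM in WT at passages 2, 3 and 4 and 361.9, 119.8 and 62.3 TPM in KO, and 10 of 10 fell with passage. Of 8 proliferation markers 3 fell with passage and 0 rose. None of 7 erythroid markers passed the filter, and 4 of them were listed at 0 in every library. In bulk RNA, fewer cells of a type and less RNA per cell cannot be told apart.

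The pathway was expressed at high levels. Gapdh, the glyceraldehyde phosphate dehydrogenase, was the most abundant member, with 2119.2 ± 480.7 TPM in WT and 2495.1 ± 518.2 TPM in KO (SD, n = 3). It was followed by the enolase Eno1 (1316.4 ± 324.7 and 1559.4 ± 239.5 TPM), the pyruvate kinase Pkm (1222.9 ± 233.7 and 1497.3 ± 164.7 TPM), the aldolase Aldoa (1124 ± 266.9 and 1252.4 ± 191.9 TPM) and the lactate dehydrogenase Ldha (1030.7 ± 328.2 and 1173.1 ± 235.4 TPM). Gapdh stood above the next member by more than either SD in both genotypes. In WT each gap between neighbours among the other 4 was smaller than either SD, and in KO the same held except for Pkm and Aldoa, whose gap was larger than both SDs. The carbonic anhydrase Car9 (4.24 ± 2.78 and 2.32 ± 0.641 TPM) and Ankrd37 (4.63 ± 3.01 and 3.62 ± 0.321 TPM) were the scarcest in both genotypes. Gapdh, Eno1 and Pkm share 23.5%, 24.2% and 21.1% of their 64-base words with other genes and Pgk1 and Pgam1 share 53.3% and 35.5%, so the counts of these 5 are less certain.

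Where several genes encode the same step, the same isoenzyme led in every library. Among hexokinases, which phosphorylate glucose, the level of Hk2 was 52.2%, 37% and 41.2% of that of Hk1 in WT at passages 2, 3 and 4, and 89.5%, 62.4% and 53.2% in KO. The ratio was higher in each KO library than in any WT library. Among phosphofructokinase genes Pfkl led, with Pfkp at 40.2% to 65.4% and the muscle form Pfkm at 14.7% to 31.4% of its level. Aldoc, the brain aldolase, had 0.272% to 1.67% of the level of Aldoa, and the neuronal enolase Eno2 had 0.864% to 1.6% of that of Eno1. Of the lactate carriers, Slc16a1 (MCT1) stood at 18.8% to 37.8% of Slc16a3 (MCT4). Of the hydroxylases, Egln3 (PHD3) stood at 19.8% to 47% of Egln1 (PHD2).

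**Figure D1:**
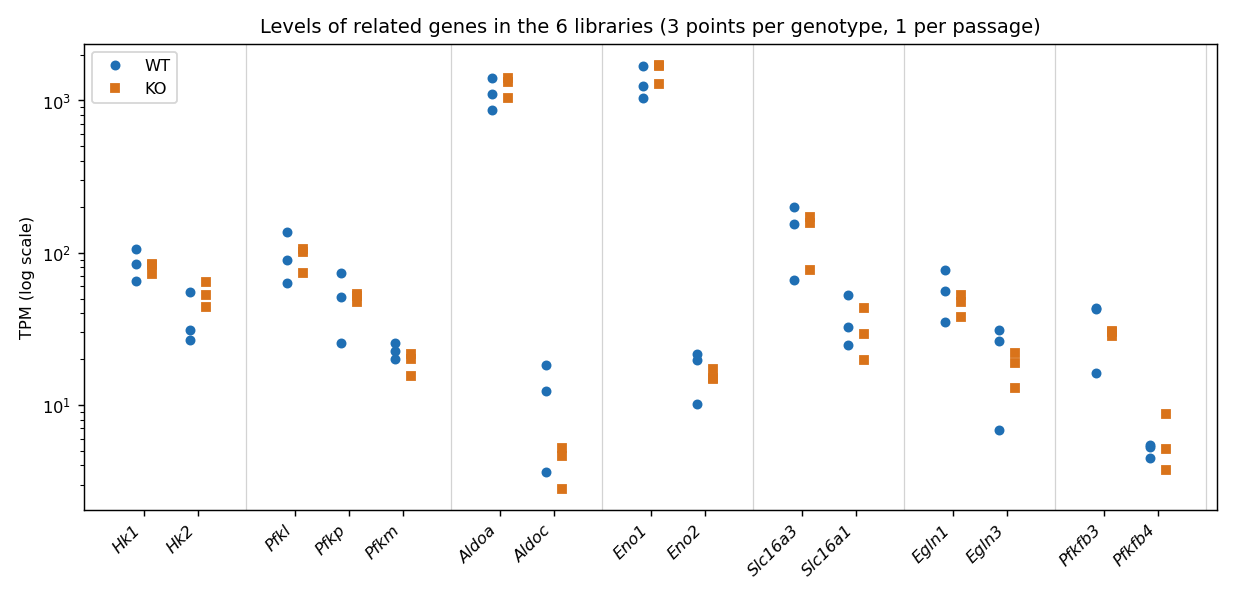
TPM on a log scale for related genes in the 6 libraries, with circles for WT and squares for KO and 1 point per passage. Aldoc and Eno2 lie at 0.272% to 1.67% and 0.864% to 1.6% of the levels of Aldoa and Eno1, while Hk2 reaches 89.5% of Hk1 in the KO library of passage 2.

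The comparison of passages asked which transcripts changed as the cultures were replated. Of the 34 members 13 fell with passage, 0 rose and 21 did not pass the test. This is 38.2% of the members, while of the 16603 genes tested 3.48% fell and 2.78% rose (6.25% in either direction). The test was edgeR's quasi-likelihood test of a linear slope over both genotypes, at a Benjamini-Hochberg adjusted p under 0.05. The slope was below 0 for 32 of 34 members (94.1%, beside 49.1% of all genes tested), with a median of -0.38 log2 per passage against 0.00352 for all genes. Without the WT library of passage 4 the median was -0.24, with 29 of 34 slopes below 0. Of the 16 glycolytic enzymes 8 fell, of the transporters 2 of 3, of the flux regulators 1 of 3, of HIF-1 and its hydroxylases 1 of 3 and of the other HIF targets 1 of 9. DESeq2 called 21 members lower (beside 5.65% of all genes), edgeR without a filter on low counts 27 (4.90%), and limma on log2(TPM + 1) 15 (4.16%). The count of 13 was 3 (8.82%) without the WT library of passage 2 and 5 (14.7%) without the KO library of passage 2. It was 4 (11.8%) without either the WT or the KO library of passage 4. Over all genes, in either direction, the calls in those fits were 280 of 16431, 278 of 17367, 371 of 17468 and 286 of 17392. With all libraries they were 1038 of 16603. Each of the 13 stayed lower with passage in all 6 fits that leave out a library, and Hk2, Pdk1 and Slc16a1 were called in all 6. The 13 were picked for that direction in the same libraries, so keeping it is not an independent check.

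**Figure D2:**
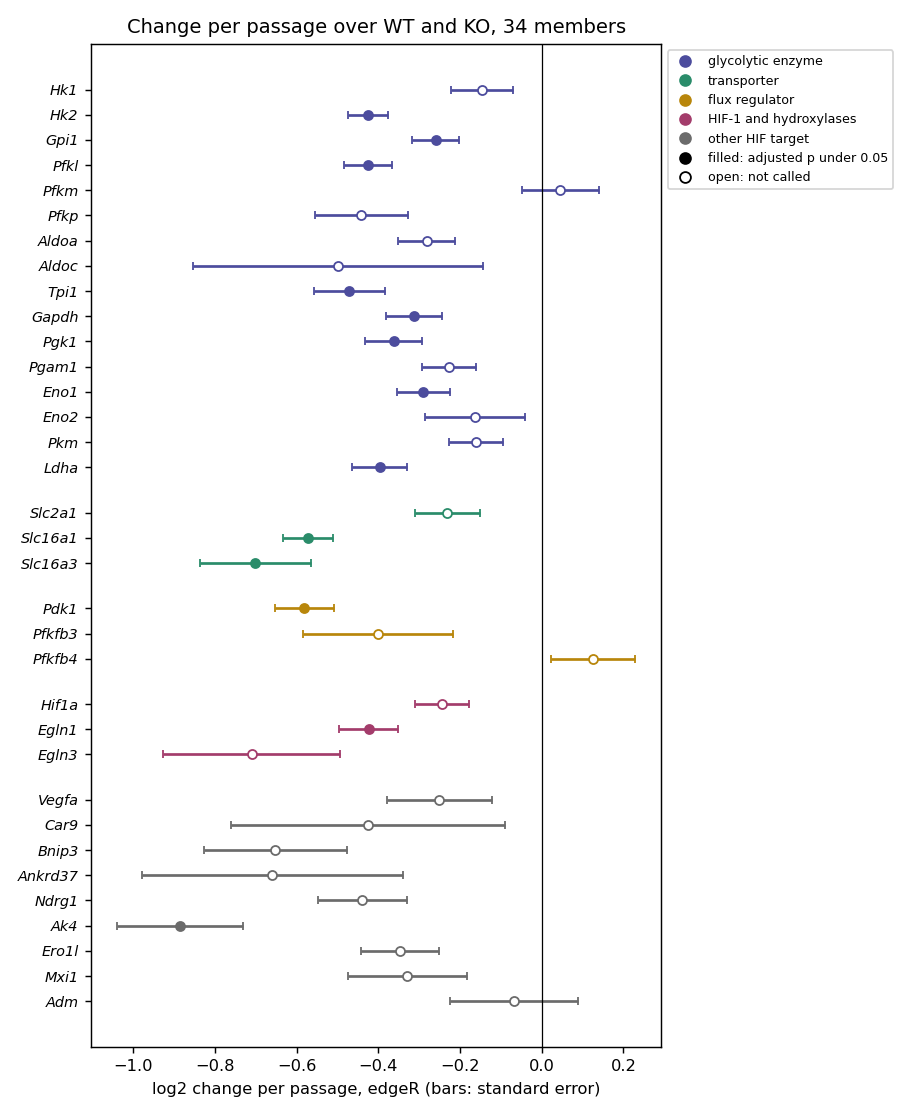
The log2 change per passage with its standard error for the 34 members, grouped by role, with filled points for adjusted p under 0.05. All points but those of Pfkm and Pfkfb4 lie left of 0, and the 13 filled points lie between -0.26 and -0.89.

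Glycolytic enzymes were lower at passage 4 at nearly every step of the pathway. Values here are CPM, on library sizes adjusted by TMM, and are listed for passages 2, 3 and 4. Hk2, the inducible hexokinase (ENSMUSG00000000628, GRCm38 chromosome 6, 82725025 to 82774454), had 157, 109 and 86.3 CPM in WT and 208, 153 and 117 CPM in KO. It was lower at each later passage in both genotypes (log2 -0.42 ± 0.05 SE per passage, edgeR adjusted p = 0.00397). Passage 4 held 54.9% of the passage 2 level in WT and 56.1% in KO. The glucose phosphate isomerase gene Gpi1 had 476, 434 and 324 CPM in WT and 432, 393 and 309 CPM in KO (log2 -0.26 ± 0.06, adjusted p = 0.0403). Pfkl, the main phosphofructokinase gene of these cells, had 251, 198 and 134 CPM in WT and 216, 186 and 125 CPM in KO (log2 -0.42 ± 0.06, adjusted p = 0.00812). For both genes the passage 4 libraries were the lowest of their genotype and the genotypes ran side by side.

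In the lower part of the pathway the order of the libraries was the same. The triose phosphate isomerase gene Tpi1 had 533, 498 and 284 CPM in WT and 511, 441 and 260 CPM in KO (log2 -0.47 ± 0.09 SE per passage, edgeR adjusted p = 0.0222), the steepest among the 8 enzymes called. Gapdh had 1120, 1050 and 818 CPM in WT and 1359, 1153 and 781 CPM in KO (log2 -0.31 ± 0.07, adjusted p = 0.0403). Pgk1, the X-linked phosphoglycerate kinase, had 757, 672 and 425 CPM in WT and 684, 603 and 445 CPM in KO (log2 -0.36 ± 0.07, adjusted p = 0.0249). In each of these 3 genes the step from passage 3 to 4 was larger than that from 2 to 3 in both genotypes. Eno1 had 1754, 1567 and 1220 CPM in WT and 1981, 1815 and 1270 CPM in KO (log2 -0.29 ± 0.06, adjusted p = 0.0409). Ldha (ENSMUSG00000063229, chromosome 7, 46841475 to 46855627) had 1122, 974 and 656 CPM in WT and 1216, 1048 and 692 CPM in KO (log2 -0.40 ± 0.07, adjusted p = 0.016). Its passage 4 level was 58.5% of that at passage 2 in WT and 56.9% in KO. On the log2(TPM + 1) scale Eno1 and Gpi1 were not called.

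The other 8 enzymes were not called. Pkm, with 80.3% and 79.8% of its passage 2 level left at passage 4, Hk1 (68.5% and 96.9%), Aldoa (69.4% and 65.8%) and Pgam1 (71.4% and 74.6%) had slopes of -0.16, -0.15, -0.28 and -0.23 log2. Pfkp had 115, 94.7 and 45.6 CPM in WT and 89.8, 84 and 64.7 CPM in KO (log2 -0.44 ± 0.11 SE, adjusted p = 0.071). Pfkm was the 1 enzyme whose slope lay above 0 (log2 0.05 ± 0.09, adjusted p = 0.844). Aldoc had the largest slope of any enzyme and the widest error (log2 -0.50 ± 0.35, adjusted p = 0.492), with 11.2, 20.5 and 4.1 CPM in WT and 3.75, 4.36 and 2.23 CPM in KO. Summed over the 16 enzymes, the level was 11681, 8858.1 and 7083.5 TPM in WT and 11337.1, 11422.7 and 8586.9 TPM in KO. On this scale the KO sum at passage 4 was below those at passages 2 and 3, which lay close together.

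**Figure D3:**
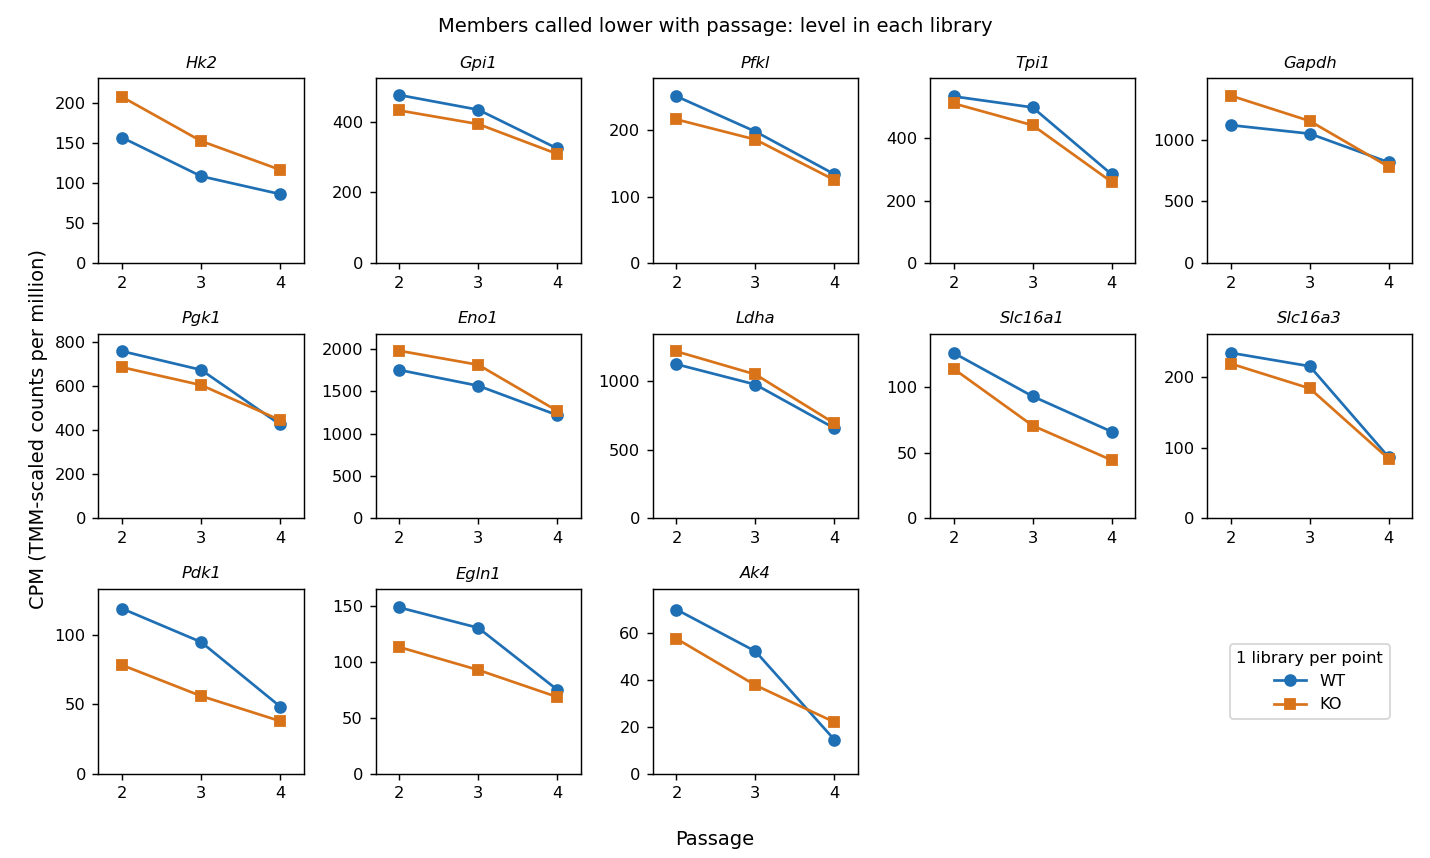
CPM in each library against passage for the 13 members called lower with passage, circles for WT and squares for KO, each axis from 0. Every line ends at its lowest point at passage 4, and the lines of Slc16a3 meet near 86.5 CPM in WT and 84.3 CPM in KO.

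Both lactate carriers fell, with slopes larger in size than those of the 8 enzymes called; the difference itself was not tested. Slc16a3 encodes MCT4, the lactate exporter of glycolytic cells (ENSMUSG00000025161, chromosome 11, 120948480 to 120960868). It had 234, 215 and 86.5 CPM in WT and 219, 184 and 84.3 CPM in KO (log2 -0.70 ± 0.14 SE per passage, edgeR adjusted p = 0.0309). Most of that fall came after passage 3, and with passage as a factor it was the 1 member called between passages 3 and 4 (log2 -1.22 ± 0.11, adjusted p = 0.0266, beside 0.0723% of all genes). Slc16a1 encodes MCT1, which carries lactate and pyruvate in both directions (ENSMUSG00000032902, chromosome 3, 104638668 to 104658462). It had 126, 93.2 and 66.2 CPM in WT and 114, 70.8 and 44.5 CPM in KO (log2 -0.57 ± 0.06, adjusted p = 0.00319). Its fall was even over the steps, and it was the 1 member called within each genotype, at -0.47 ± 0.07 in WT (adjusted p = 0.0491) and -0.68 ± 0.07 in KO (adjusted p = 0.0347). Among all genes 0.566% fell within WT and 0.638% within KO. The glucose carrier gene Slc2a1 (GLUT1) had 230, 243 and 160 CPM in WT and 252, 249.9 and 190 CPM in KO and was not called (log2 -0.23 ± 0.08, adjusted p = 0.142).

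Of the flux regulators, Pdk1 fell. It encodes a kinase that switches off pyruvate dehydrogenase and so keeps pyruvate out of the mitochondria (ENSMUSG00000006494, chromosome 2, 71873224 to 71903858). It had 119, 95 and 48.6 CPM in WT and 78.4, 56.1 and 38.1 CPM in KO (log2 -0.58 ± 0.07 SE per passage, edgeR adjusted p = 0.00545). Pfkfb3 and Pfkfb4 make or break fructose 2,6-bisphosphate, the activator of phosphofructokinase. Pfkfb3 had 86, 98.7 and 33.8 CPM in WT and 67.3, 56.6 and 51.3 CPM in KO (log2 -0.40 ± 0.18, adjusted p = 0.279). Pfkfb4, at 6.67 to 10.2 CPM, had a slope of 0.13 ± 0.10 (adjusted p = 0.545), and its KO libraries were higher at each later passage while its WT libraries were not.

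The hydroxylase gene Egln1 fell, and Hif1a and Egln3 were lower without passing. Egln1 (PHD2) encodes the main oxygen sensor that marks HIF-1 alpha for degradation (ENSMUSG00000031987, chromosome 8, 124908587 to 124949324). It had 149, 131 and 75.2 CPM in WT and 113, 92.8 and 68.7 CPM in KO (log2 -0.42 ± 0.07 SE per passage, edgeR adjusted p = 0.0159). Egln3, a hypoxia-induced relative, had 43.8, 45 and 10.9 CPM in WT and 34.6, 26.8 and 17.1 CPM in KO (log2 -0.71 ± 0.22, adjusted p = 0.121). Its WT libraries of passages 2 and 3 lay close together and its passage 4 library held 24.9% of the passage 2 level. Hif1a itself had 1187, 1081 and 802 CPM in WT and 901, 889.7 and 677 CPM in KO (log2 -0.24 ± 0.07, adjusted p = 0.0724). Its product is controlled mainly at the protein level, which RNA does not show.

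Among the other HIF targets Ak4, an adenylate kinase of mitochondria, fell. It had the steepest slope of the 34 members (ENSMUSG00000028527, chromosome 4, 101419277 to 101466995). It had 70, 52.2 and 14.5 CPM in WT and 57.6, 37.8 and 22 CPM in KO (log2 -0.89 ± 0.15 SE per passage, edgeR adjusted p = 0.0232). The remaining 8 had slopes between -0.07 (Adm) and -0.66 (Ankrd37), and none passed. Bnip3, which tags mitochondria for autophagy, had 213, 216 and 68 CPM in WT and 137, 117 and 67.6 CPM in KO (log2 -0.65 ± 0.18, adjusted p = 0.0879). Ndrg1, a stress-response gene, had 140, 139 and 64.4 CPM in WT and 76.9, 55.6 and 48.2 CPM in KO (log2 -0.44 ± 0.11, adjusted p = 0.0613). Vegfa, the main angiogenic growth factor gene, had 310, 386 and 198 CPM in WT and 285, 302 and 220 CPM in KO (log2 -0.25 ± 0.13, adjusted p = 0.323). In WT the passage 4 library was the lowest for each of these 3 genes, and the libraries of passages 2 and 3 lay close together for Bnip3 and Ndrg1. Ankrd37, an ankyrin-repeat gene used as a hypoxia marker, was scarce, with 81, 101 and 9 counts in WT and 43, 93 and 26 counts in KO (log2 -0.66 ± 0.32, adjusted p = 0.293). Its lowest value in each genotype was at passage 4, at 19.4% of the passage 2 CPM in WT and 53.3% in KO. Ero1l, whose product helps form protein disulphide bonds, the MYC antagonist gene Mxi1 and Car9 had slopes of -0.35, -0.33 and -0.43. Their edgeR adjusted p ran from 0.0793 to 0.535. The summed level of the 9 targets was 1010.3, 938.2 and 503.7 TPM in WT and 683.9, 676.2 and 554.4 TPM in KO. Adm, the gene of the peptide adrenomedullin, had 94.2, 163 and 97.2 CPM in WT and 95, 107 and 77.1 CPM in KO, so that its passage 4 level was 103% of that at passage 2 in WT and 81.1% in KO.

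Decreases were larger between passages 3 and 4 than between 2 and 3 in the median of the members. From passage 3 to 4 all 34 members were lower in WT, with a median log2 ratio of -0.70, and 31 of 34 were lower in KO, with a median of -0.44. Of all genes tested 50.7% and 48.8% were lower at that step. From passage 2 to 3 22 of 34 members were lower in WT (median -0.09) and 26 of 34 in KO (median -0.16), beside 51.1% and 49% of all genes. The other HIF targets had a median of 0.23 in WT from passage 2 to 3 and -1.20 from 3 to 4, and in KO the medians were -0.20 and -0.45. With passage as a factor edgeR called 0 of 34 members between passages 2 and 3, beside 0.193% of all genes. It called 1 lower between 3 and 4, beside 0.0723% of all genes, and 17 lower between 2 and 4, beside 4.04%. At an unadjusted p under 0.05 the count was 5 between passages 2 and 3 and 28 between 3 and 4. The share of all genes at that unadjusted threshold is not given here, so these counts have no background. CPM was lower at each later passage in both genotypes for 18 of 34 members (52.9%), beside 8.91% of all genes, and higher at each for 0 of 34, beside 9.47%. Each passage is 1 library per genotype, so passage and anything else that set those harvests apart cannot be told apart. The part of the macrophage markers, all of which fell over the same libraries, and of the 3 proliferation markers that fell was not tested.

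**Figure D4:**
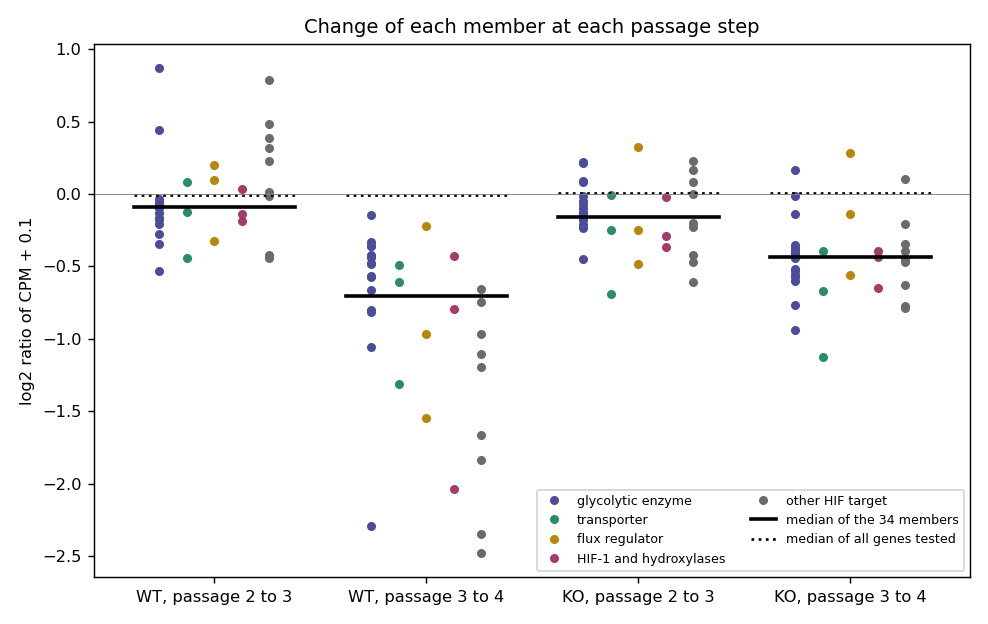
The log2 ratio of CPM + 0.1 between successive passages for each member, coloured by role, with the median of the 34 members as a solid bar and that of all genes tested as a dotted bar. The solid bar lies at -0.09 and -0.70 in WT and at -0.16 and -0.44 in KO, and the dotted bars lie near 0.

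A further 100 genes around the pathway were listed, of which 87 were tested. With passage 14 fell (16.1%, beside 3.48% of all genes) and 1 rose, and 62 of 87 slopes lay below 0. The fall was in further HIF targets (9 of 44) in isoenzymes and side branches (4 of 16) and in 1 of 7 hexose or monocarboxylate carriers. Of 12 genes for the entry of pyruvate into mitochondria 0 were called (1 at an unadjusted p under 0.05), and of 8 genes of the HIF system 0 (1 unadjusted). Stc2, the gene of the secreted glycoprotein stanniocalcin 2, had 44.2, 27 and 13.3 CPM in WT and 44.9, 21.2 and 10.2 CPM in KO (log2 -0.97 ± 0.07 SE, edgeR adjusted p = 0.0014). The glycogen genes Gys1 (glycogen synthase, log2 -0.41) and Pgm1 (phosphoglucomutase, log2 -0.39) also fell, as did Higd1a, a nuclear gene for a mitochondrial protein (log2 -0.57). So did scarce transcripts, namely Pck1 of gluconeogenesis (log2 -2.38), Hk3, the hexokinase of myeloid cells (log2 -1.58), and the chemokine receptor gene Cxcr4 (log2 -1.54), each at 7.09 CPM or less. The urate and hexose carrier gene Slc2a9 was the 1 that rose (log2 0.83, adjusted p = 0.0126). Adjusted p for these 8 genes lay between 0.0014 and 0.0128.

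Promoter sequence was compared as a description of the members. The letters ACGTG, 1 form of the core of the HIF binding site, were searched on either strand. The search ran from 250 bases before to 50 after each start site in RefSeq windows of GRCm38.p6. Other forms of the core were not searched and are not marked below. Of 33 members with a window 24 held a match in at least 1 window (72.7%), beside 21.8% of all genes in that table. Over single windows the shares were 53.8% for the members and 19.6% for the table. Among genes with a single window the shares were 66.7% of 21 members and 19.4% of the table. Among the members called lower with passage 8 of 13 held a match, and among those not called 16 of 20. A match is a description and not a bound site. The list was drawn up around HIF-1 and its targets, so shares above those of all genes may come from that choice. Any part of these letters in the passage change was not tested. The sequences that follow are the 250 bases before the start site for called members whose window held a match and touched no annotated exon. They run 5′ to 3′ on the strand of the gene, with the matches in capitals, and a run of CACGTG holds a match on both strands.
Slc16a1: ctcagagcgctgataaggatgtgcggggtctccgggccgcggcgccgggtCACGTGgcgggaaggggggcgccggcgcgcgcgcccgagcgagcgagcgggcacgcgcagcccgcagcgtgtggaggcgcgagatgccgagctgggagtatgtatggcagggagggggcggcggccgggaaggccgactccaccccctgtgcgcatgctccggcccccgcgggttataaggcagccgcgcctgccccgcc
Hk2: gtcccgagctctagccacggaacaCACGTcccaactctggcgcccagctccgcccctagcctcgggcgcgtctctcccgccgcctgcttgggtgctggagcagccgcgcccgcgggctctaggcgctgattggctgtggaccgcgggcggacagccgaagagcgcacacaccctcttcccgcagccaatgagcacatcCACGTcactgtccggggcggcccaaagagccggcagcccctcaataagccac
Ldha: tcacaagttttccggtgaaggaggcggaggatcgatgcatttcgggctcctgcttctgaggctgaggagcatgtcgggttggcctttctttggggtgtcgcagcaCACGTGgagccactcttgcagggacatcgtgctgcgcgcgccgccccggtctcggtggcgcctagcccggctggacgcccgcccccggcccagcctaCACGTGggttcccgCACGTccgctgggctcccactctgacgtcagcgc
Pgk1: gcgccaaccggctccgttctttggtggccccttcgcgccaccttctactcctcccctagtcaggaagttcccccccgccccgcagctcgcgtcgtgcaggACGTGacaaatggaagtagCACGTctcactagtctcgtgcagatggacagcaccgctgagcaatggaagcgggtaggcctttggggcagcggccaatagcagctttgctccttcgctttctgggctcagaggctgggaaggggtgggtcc
The Slc16a1 window (chr3:104638414-104638663, plus strand) lies before the gene and holds 1 such palindrome. The Hk2 window (chr6:82774455-82774704, minus strand) also lies before its gene and holds 2 separate matches. The Ldha window (chr7:46845554-46845803, plus strand) lies within the annotated span of Ldha but in none of its exons, and holds 3 runs in capitals. The Pgk1 window (chrX:106186850-106187099, plus strand) holds 2. For Pdk1, Gpi1, Pfkl, Tpi1 and Eno1, which also fell, no window held these letters.

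The comparison of genotypes asked which transcripts differed between KO and WT. No member was called by edgeR without a passage term (0 of 34), beside 2.48% of all genes, 0.934% higher and 1.55% lower in KO. At an unadjusted p under 0.05 the count was 4, for which no share of all genes is given. DESeq2 called 2 members lower, Aldoc and Ndrg1, beside 5.52% of all genes. Without the WT library of passage 4 edgeR called 4 members lower in KO (11.8%), namely Aldoc, Car9, Mxi1 and Ndrg1. In that fit 847 of 17468 genes were called in either direction, beside 412 of 16603 with all libraries. The change was below 0 for 26 of 34 members (76.5%, beside 51.6% of all genes tested), with a median of -0.18 log2. This median rested on single libraries: it was -0.05 without the WT library of passage 2, -0.04 without that of passage 3 and -0.42 without that of passage 4, and -0.33 and -0.08 without the KO library of passage 2 or 4. The count below 0 ran from 19 to 29 of 34 over the fits that leave out a library, and on log2(TPM + 1) it was 20, with a median of -0.04 beside 0.08 for all genes. All 9 of the other HIF targets had a fitted change below 0 (median -0.57; 7 to 9 of 9 and -0.38 to -0.83 when a library was left out), as had the 3 flux regulators (median -0.32) and HIF-1 with its hydroxylases (3 of 3, median -0.35). Of the glycolytic enzymes 9 lay below 0 and 7 above (median -0.10, and 0.09 on log2(TPM + 1)), and when a library was left out 4 to 12 of 16 lay below 0. The CPM ranges of the genotypes did not overlap for 1 member (2.94%), Pfkm, at 33.2 to 46.4 CPM in WT and 25.9 to 30.2 CPM in KO, beside 27.2% of all genes tested.

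With passage as a block, which removes the spread between passages that both genotypes share, 5 members were called, 1 higher and 4 lower in KO. That is 14.7% of the members beside 11.1% of all genes, a share near the background. The median over the 34 members was -0.13 log2 with the block, and 26 of 34 changes lay below 0. Hk2 was higher in KO at each passage, at 159 ± 46 CPM against 117 ± 36.2 CPM in WT (SD over 3 libraries). Its log2 difference with the block was 0.44 ± 0.08 SE (edgeR adjusted p = 0.021 with the block and 0.41 without). Aldoc was lower in KO at each passage, with 11.9 ± 8.21 CPM in WT and 3.45 ± 1.1 in KO (log2 -1.63 ± 0.25, adjusted p = 0.0139 and 0.135). Pdk1 was lower at each passage, with 87.5 ± 35.9 and 57.5 ± 20.2 CPM (log2 -0.58 ± 0.10, adjusted p = 0.0193 and 0.394). Ndrg1 had 114 ± 43.3 and 60.2 ± 14.9 CPM (log2 -0.87 ± 0.17, adjusted p = 0.0263 and 0.159), and the passage 2 and 3 libraries of WT were higher than all others. Mxi1 had 40.4, 47.2 and 20.6 CPM in WT and 23.5, 23.5 and 17.9 CPM in KO (log2 -0.67 ± 0.16, adjusted p = 0.0413 and 0.212). Car9, a surface carbonic anhydrase that is a widely used hypoxia marker, had 4.78, 6.71 and 1.24 CPM in WT and 1.8, 2.12 and 1.65 CPM in KO and was not called in either fit (log2 -1.19 ± 0.53 without the block, adjusted p = 0.255, and adjusted p = 0.154 with it). Its 2 highest libraries were WT at passages 2 and 3. Of the 87 other pathway genes tested 0 were called without the block. At an unadjusted p under 0.05 the count was 30, for which no share of all genes is given. With the block 3 were called higher and 14 lower, beside 4.69% and 6.37% of all genes. Among them, named after their values were seen, were the HIF target Ndufa4l2 (39.2 ± 26 CPM in WT and 7.87 ± 3.49 CPM in KO, adjusted p = 0.00913 with the block) and the haem oxygenase gene Hmox1 (105 ± 29.3 and 231 ± 74.1 CPM, adjusted p = 0.00945). Fibroblast markers moved with genotype as well, with 5 of 12 lower in KO, and their part in these differences was not tested. Of all genes 1.55% were lower without the block and 6.37% with it.

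**Figure D5:**
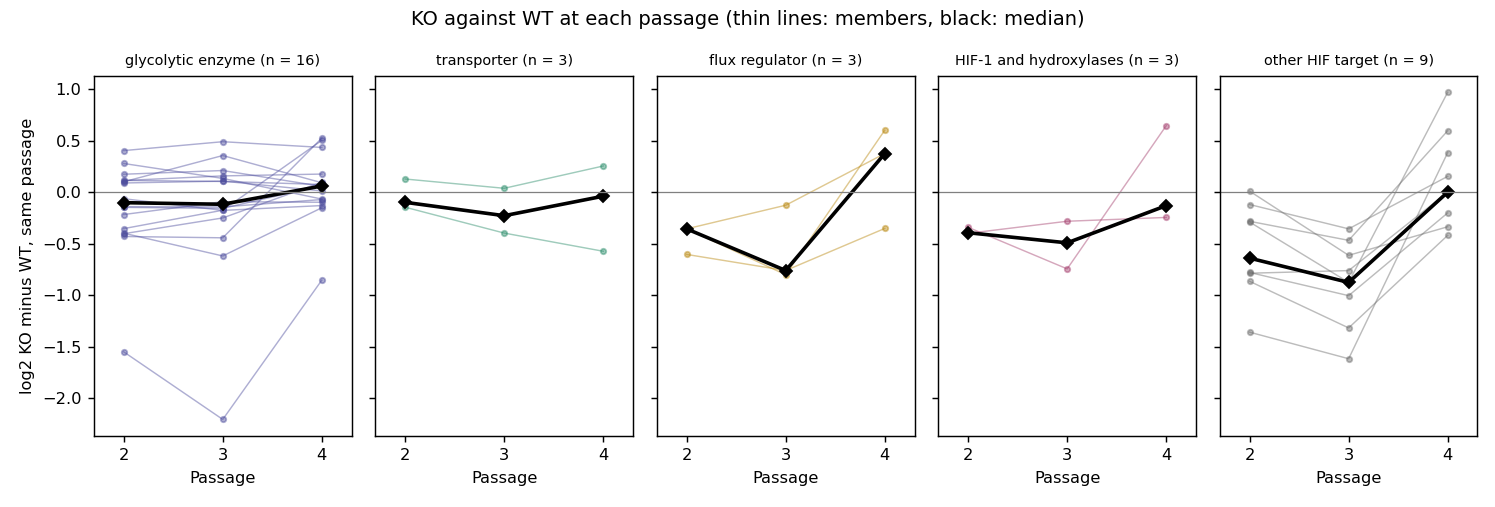
The log2 ratio of KO to WT at the same passage for each member (thin lines) and the group median (black) in the 5 groups. For the other HIF targets the median is -0.64 at passage 2, -0.87 at passage 3 and 0.00201 at passage 4, while for the glycolytic enzymes it stays between -0.12 and 0.06.

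In the median of the other HIF targets KO lay below WT at passages 2 and 3 and near it at passage 4. Among them 8 of 9 were lower in KO at passage 2 (median log2 -0.64), 9 of 9 at passage 3 (median -0.87) and 4 of 9 at passage 4 (median 0.00201). The medians of the glycolytic enzymes at the same passages were -0.10, -0.12 and 0.06, and those of all genes tested were -0.03, -0.02 and -0.00323. Medians were -0.35, -0.76 and 0.38 for the flux regulators and -0.39, -0.49 and -0.13 for HIF-1 with its hydroxylases. For the transporters they were -0.10, -0.23 and -0.04, and for the 87 other pathway genes tested -0.25, -0.36 and -0.05. The course was therefore not particular to the other HIF targets. Each of these is a single pair of libraries with no replicate check. Members called with the block kept their direction at passage 4, with log2 ratios of 0.44 for Hk2, -0.85 for Aldoc, -0.35 for Pdk1, -0.42 for Ndrg1 and -0.20 for Mxi1. They were picked by a fit that includes this pair of libraries, so keeping the direction is not an independent check. The edgeR test of whether the slope per passage differed between the genotypes called 0 of 34 members, beside 0.00% of all genes. DESeq2 also called 0 members. At an unadjusted p under 0.05 the edgeR count was 3, for which no share of all genes is given. The smallest unadjusted p values were those of Ero1l (slope in KO minus slope in WT, log2 0.39 ± 0.13 SE, adjusted p = 0.647), Eno2 (0.47 ± 0.18, adjusted p = 0.687) and Pfkp (0.43 ± 0.17, adjusted p = 0.719). Ero1l had 310, 228 and 145 CPM in WT and 180, 135 and 145 CPM in KO, so that the libraries met at passage 4. The difference was above 0 for 26 of 34 members (median log2 0.12, beside 0.02 for all genes), and without the WT library of passage 4 it was above 0 for 5 (median -0.27) and without the KO library of passage 2 for 17 (median -0.01). Eno2 had 21.6, 21.1 and 12 CPM in WT and 16, 15.5 and 17.4 CPM in KO. Over all genes DESeq2 called 83 differences in slope and edgeR without a filter 289, none of them members.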

How the data were processed

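RNA-seq of 6 MEF libraries was analysed, 3 per genotype. The authors used Trimmomatic 0.39 and RSEM with GRCm38, per the submitters' processing notes. For the version of RSEM, its aligner, the annotation release and the strand setting, the sources used here give nothing. The deposited tables hold expected counts, in which RSEM shares ambiguous reads among genes, TPM made by the authors' RSEM run, and effective lengths. Symbols and coordinates came from GENCODE M21 (GRCm38).

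Expected counts were rounded and filtered by genotype (minimum count 10), which left 16603 genes. They were scaled by TMM. The main test was edgeR 4.0.16 in its robust quasi-likelihood form (two-sided). CPM has TMM-scaled library sizes. DESeq2 1.42.0 and limma 3.58.1, the latter on log2(TPM + 1), were alternatives. Residual degrees of freedom were 4 for genotype, 3 for the slope and 2 for the interaction. The fits were tested on simulated data. A count of 0 allows 0.0443 to 0.121 CPM of a library (3 counts, counting error only). No pair of libraries agreed within sampling noise (chi-square per degree of freedom 37.9 or more).

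Deviations from the genotype means correlated at 0.548, 0.195 and 0.472 between the libraries of passages 2, 3 and 4. Passage number was therefore taken to pair the libraries. For genotype, the calls of members and other pathway genes and the median of the members are given with and without the block. The fitted medians of the groups are given without it. The members and lists were chosen with earlier results of these data known. Members got full values if called in a fit or with the block, or if they had the largest change of their role. Other pathway genes were named if called, at most 8 a fit. Single-sample ratios added 0.1 CPM. A gene with 25% or more of its words shared was counted as sharing sequence.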

Additional observations from a re-analysis of the deposited data

How the results depend on the processing

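The direction of the passage change held more widely than the calls. The slope was below 0 for all 13 members called over passage in every alternative tried for it. They were picked for that direction in the same libraries, so this is not an independent check. The number of the 34 members called over passage was 13 by edgeR, 21 by DESeq2, 27 without a filter (beside 4.90% of all genes that fell) and 15 on log2(TPM + 1). It was 1 within WT, 1 within KO, 17 between passages 4 and 2, and 3 to 17 when a library was left out. Over all genes 278 to 1286 were called in either direction when a library was left out. Alternatives chosen after seeing the data gave 0 between passages 3 and 2, 1 between passages 4 and 3, 1 without both libraries of passage 2 and 0 without both libraries of passage 4, all with fewer libraries or degrees of freedom than 13 rests on. Without Pgk1 and Pgam1, which share sequence, 12 of 32 were called. For genotype the count was 0 by edgeR, 2 by DESeq2 and 5 with the passage block. It was 0 to 4 when a library was left out, where 38 to 847 of all genes were called. In the other alternatives it was 0 (4 unadjusted in the edgeR fit). Groups from the genotype tag held 1 library of KO, that of passage 2, and 5 of WT. The KO-titled libraries of passages 3 and 4 counted as WT there. With these groups the genotype median of the members was 0.14 in place of -0.18, and 11 of 34 lay below 0 in place of 26. Pdk1 changed sign (log2 0.13). Tag and passage are mixed in these groups, and the cause was not tested. The difference in slopes called 0 members in all alternatives tried (3 unadjusted by edgeR), and on log2(TPM + 1) its median over all genes was 0.15, beside 0.31 for the members.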
